A study of Mus musculus with 2 samples.

Results

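Cd4, Cd8a, Cd8b1 and Themis were followed in single γδ T cells of the mouse liver and thymus. They are the genes of the TCR coreceptors CD4 and CD8 (the CD8α and CD8β chains) and of Themis, a T cell signalling protein. The 4 genes were matched by symbol among the 27998 genes of the count tables. They had been chosen by their detection in these cells, the share of cells with a transcript of each, so their levels are given as a description with no test.

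CD4 binds MHC class II and CD8 binds MHC class I beside the TCR, and both bring the kinase Lck to the receptor. CD8α pairs with itself or with CD8β; αα dimers are found on many γδ and innate-like T cells, whereas αβ dimers are typical of conventional CD8 αβ T cells, and the β chain needs the α chain to reach the cell surface. Themis binds the adaptor Grb2 and tunes TCR signalling while thymocytes are selected. Most circulating γδ T cells carry neither coreceptor.

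The cells came from wild-type, untreated C57BL/6J mice aged 8 weeks, with 1 library of liver cells and 1 library of thymus cells. Both were sorted as CD3e+ TCRγδ+ cells, and the thymus suspension was first depleted with anti-CD4 and anti-CD8 magnetic beads, while no such step is described for the liver. Low CD4 and CD8 transcript levels in the thymus library therefore cannot be told apart from that depletion. The same holds for the balance of Cd8a and Cd8b1 in that library. Cells of several mice went into the series, but how the mice were divided between the libraries is not given in the sources used here, and with 1 library per tissue there is no replicate error.

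The coding ends of the 3 coreceptor genes are shown because the cytoplasmic tails separate the chains. The 3 sequences are the last 99 coding bases before the stop codon, 5′ to 3′ on the sense strand, from the GRCm38 transcripts of GENCODE M21. Capitals mark 4 codons in frame that read cysteine, any residue, cysteine, proline, the motif through which the coreceptors hold Lck.

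Cd4: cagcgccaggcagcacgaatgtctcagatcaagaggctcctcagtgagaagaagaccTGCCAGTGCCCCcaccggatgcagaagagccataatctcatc
Cd8a: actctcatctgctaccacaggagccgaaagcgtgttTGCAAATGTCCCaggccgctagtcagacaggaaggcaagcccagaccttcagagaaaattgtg
Cd8b1: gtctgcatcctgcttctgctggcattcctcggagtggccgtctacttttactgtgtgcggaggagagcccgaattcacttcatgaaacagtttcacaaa

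The motif starts at codon 444 of 457 in Cd4 and at codon 227 of 247 in Cd8a, whereas the 213 codons of Cd8b1 hold 0 matches in frame. Across 21689 genes, with 1 transcript each, 38 (0.175%) had the motif within their last 99 coding bases. Cd8b1 (ENSMUSG00000053044) lies on the plus strand at chr6:71322788-71337494 and has 6 exons. Cd8a (ENSMUSG00000053977) follows on the same strand at chr6:71373427-71379173 with 5 exons, 35.9 kb further on, and the 4 annotated genes between them include 0 protein-coding genes. Cd4 (ENSMUSG00000023274) is on the minus strand at chr6:124864692-124888221 with 10 exons, 53.5 Mb from Cd8a. Themis (ENSMUSG00000049109), with 6 exons on the plus strand at chr10:28668360-28883818, overlaps the pseudogenes Gm47834 and 4930519F09Rik on the opposite strand. None of the 3 coreceptor genes overlaps another annotated gene.

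In all, 8075 of 8658 liver barcodes and 4351 of 4541 thymus barcodes were kept, with medians of 2741 and 3271 UMIs per cell (1 UMI is 1 captured transcript molecule). Cd3g was detected in 96.7% of liver and 95.3% of thymus cells, and the TCR constant genes were not analysed here. Whether αβ T cells passed the sort, among the Cd8b1-positive cells in particular, was therefore not tested. All cells are called γδ T cells by their label. The study reports sort purities that leave a fraction of cells that were not γδ T cells in both tissues. That fraction is larger than the share of cells with a Cd8b1 UMI, 1.72% in the liver and 2.02% in the thymus. Myeloid genes summed to 972 counts per 1000000 UMIs (CPM) in the liver and 221 in the thymus, B cell genes to 33.8 and 29.6 CPM, and 60 barcode sequences occurred in both libraries. Clustering without the 4 genes gave 11 clusters, which were named after the study's classes C1 to C8 by their markers. C3-like cells carried Tcf7, Lef1, Dapl1 and Ly6c2, C4-like cells Socs2 and Cd40lg, C5-like cells Tyrobp, Gzmb and Ncr1, and C6-like cells Il17a and Ccr6. C7-like cells carried Klra6, Klra7 and Klrg1, C8-like cells the myeloid genes Lyz2 and Apoe, and the thymic C1-like cells Hes1 and Sox13. Clusters 5, 7 and 10 stayed unnamed because hemoglobin, cell cycle and interferon genes were among their leading genes, and cluster 5 was also led by Cd200, S1pr1 and Ccr7.

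Cd8a, which encodes the α chain, was the most widely detected of the coreceptor genes in the liver and followed the C5-like class. A Cd8a UMI was found in 1935 liver cells (24.0%, exact 95% interval 23.0 to 24.9%), of which 64.3% were C5-like. In that cytotoxic class 1245 of 2872 cells were positive (43.3%, 41.5 to 45.2%), at 392 CPM (378 to 406) of the summed UMIs. Intervals cover counting error only.

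Below the C5-like cells came cluster 10 with 36.2% of cells (25.0 to 48.7%), cluster 7 with 25.2% (17.6 to 34.2%) and C7-like cells with 20.2% (15.6 to 25.4%). C4-like cells followed at 15.1% (13.7 to 16.4%) and C3-like cells at 10.5% (8.68 to 12.5%). The intervals of C5-like cells and cluster 10 overlapped, as did those of cluster 7 and C7-like cells. IL-17-type C6-like cells, taken as the class expected to lack CD8, gave 6.30% (4.71 to 8.22%), and the myeloid C8-like cells 10.5% (5.35 to 18.0%). At 1500 UMIs per cell these shares were 33.0% in C5-like, 10.0% in C4-like, 5.38% in C3-like, 4.76% in C8-like and 2.27% in C6-like cells, so Cd8a in C3-like cells was close to its share in myeloid cells. The level in C6-like cells, 35.1 CPM, was 14.8 CPM once the cells with the highest doublet scores were removed, and that of C3-like cells changed from 46.7 to 36.8 CPM.

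In the thymus Cd8a was found in 45 of 4351 cells (1.03%), with 73 UMIs in all or 4.28 CPM. Cluster 5 held 20 of these cells (1.91% of the cluster), and 0 of 167 C6-like cells had a UMI, which with 3 counts allowed for the class gives a limit of 1.80%.

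Cd8b1, the β chain gene, was rare in both libraries and distributed unlike Cd8a. It was detected in 139 liver cells (1.72%, 1.45 to 2.03%), of which 82 had 1 UMI and 57 had 2 or more, with a highest value of 12. C3-like cells made up 12.9% of the liver cells and 60.4% (51.8 to 68.6%) of the Cd8b1-positive ones. Within that class 84 of 1041 cells were positive (8.07%, 6.49 to 9.89%) at 51.1 CPM (43.8 to 59.2), and at 1500 UMIs per cell the share was 5.28%.

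Cycling cluster 7 was next with 5 of 115 liver cells (4.35%, 1.43 to 9.85%), at a median of 4688 UMIs per cell. The background class of C6-like cells gave 0.882% (0.355 to 1.81%), and all 7 of its positive cells had a single UMI. C4-like cells at 0.954% (0.624 to 1.40%), C7-like cells at 1.44% (0.395 to 3.66%) and C5-like cells at 0.348% (0.167 to 0.639%) were not above that share by their intervals. The class with most Cd8a thus had 14 Cd8b1 UMIs in 2872 cells. By summed UMIs C7-like cells were higher, at 13.2 CPM (6.60 to 23.6) from 11 UMIs in 4 cells. C6-like cells were at 2.79 CPM (1.12 to 5.75).

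In the thymus Cd8b1 was found in 88 cells (2.02%, 1.63 to 2.49%), more cells than Cd8a, at 8.61 CPM. Cluster 5 held 60.2% of them, with 53 of 1046 cells positive (5.07%, 3.82 to 6.58%) at 28.0 CPM (22.6 to 34.2). Cluster 7 followed at 2.98% and the C3-like cells at 2.79%, whereas the C1-like cells were at 0.539%. Thinning to 1500 UMIs gave 4.03% in cluster 5 and 0.745% in the deeper cluster 7.

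**Figure D1:**
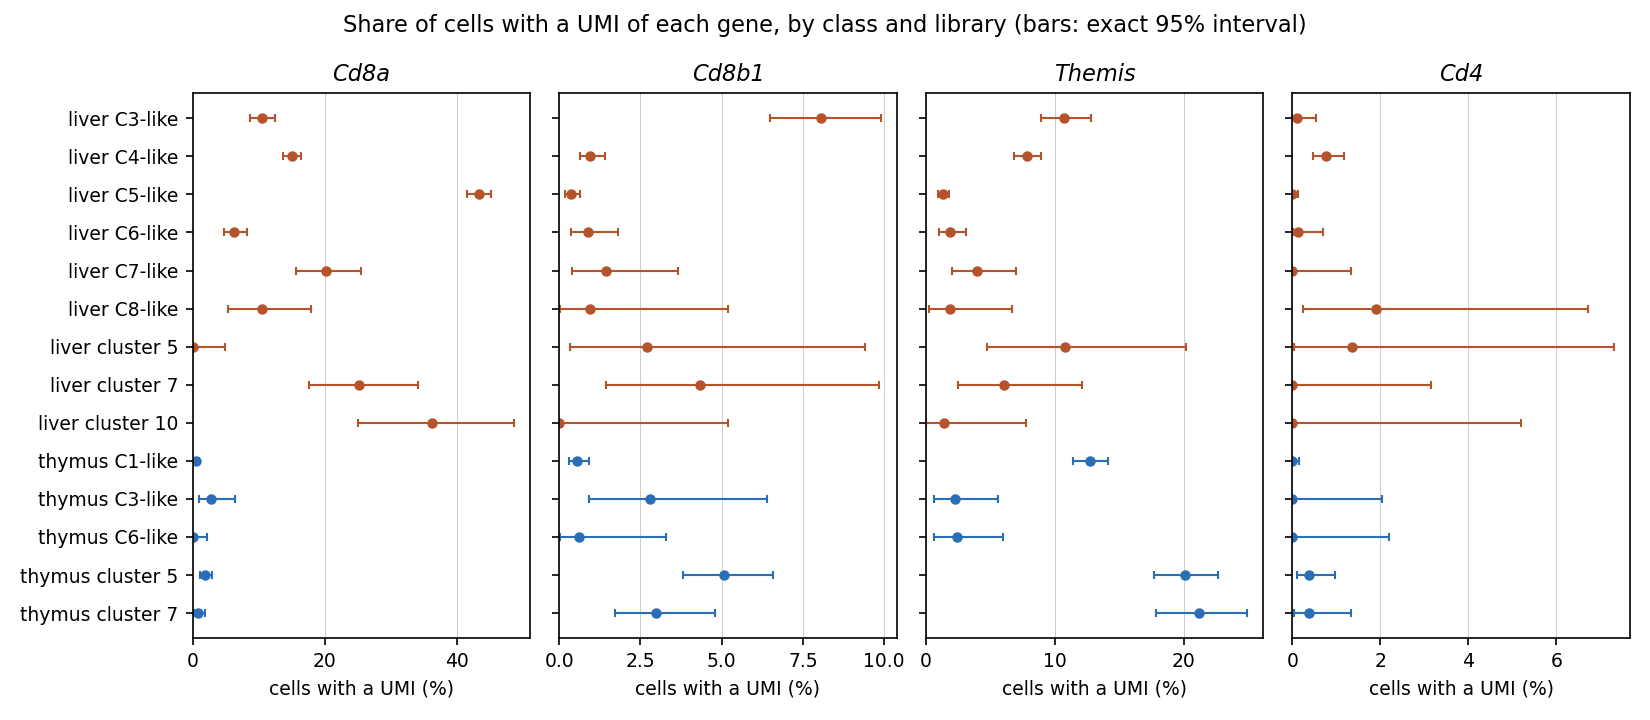
Share of cells with at least 1 UMI of Cd8a, Cd8b1, Themis and Cd4 (%, 1 panel per gene, x scales differ) in each class of the liver (brown) and thymus (blue) library; points are shares and bars exact 95% intervals. Cd8a peaked in liver C5-like cells at 43.3%, Cd8b1 in liver C3-like cells at 8.07% and Themis in thymic clusters 7 and 5 at 21.2% and 20.1%.

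Themis was detected in more thymus than liver cells, 640 (14.7%) against 408 (5.05%), at 43.9 against 18.3 CPM. Thymic cluster 7 had 21.2% and cluster 5 had 20.1% (17.7 to 22.6%), or 74.1 CPM (65.2 to 83.9) in the latter. The C1-like cells had 12.7%, made up of 6.64% in cluster 2 and 19.5% in cluster 4. Depth moved with these shares, with a median of 4198 UMIs in cluster 4 against 2651 in cluster 2. At 1500 UMIs per cell they were 11.2% in cluster 5, 5.96% in cluster 7, 7.69% in cluster 4 and 4.52% in cluster 2.

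Among liver classes Themis was found in 10.8% of C3-like cells (8.94 to 12.8%) and 7.86% of C4-like cells (6.87 to 8.93%). C6-like cells had 1.89% and C5-like cells 1.32% (0.938 to 1.81%), with overlapping intervals (1.06 to 3.10% in C6-like cells). At 1500 UMIs per cell the C3-like and C4-like shares were 5.48% and 4.59%, and those of C6-like and C5-like cells 0.504% and 0.731%. The C3-like cells of the thymus differed from those of the liver, with 4 of 179 positive (2.23%).

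Cd4 was close to absent in both libraries. In the liver 26 cells held 32 UMIs (1.32 CPM), and 21 of these cells were C4-like (0.771% of that class, 3.05 CPM). The myeloid C8-like cells had a higher level, 12.1 CPM (3.94 to 28.3), from 5 UMIs in 2 of 105 cells. None of 2872 C5-like cells had a Cd4 UMI, which with 3 counts allowed for the class gives a limit of 0.104% of cells with a UMI. The thymus library held 8 Cd4 UMIs in 7 cells, 4 of them in cluster 5, and 0 of 2410 C1-like cells were positive, with a limit of 0.124% by the same 3 counts.

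The next question was how often Cd8b1 came with Cd8a in the same cell. Of the 139 Cd8b1-positive liver cells 47 also had a Cd8a UMI (33.8%, 26.0 to 42.3%) and 92 had none. Among Cd8b1-negative liver cells 23.8% had Cd8a, or 13.4% when those cells were weighted to the classes of the positive ones. The cells with both transcripts were deeper, with a median of 3362 UMIs against 2869 for Cd8b1 alone. At 1500 UMIs per cell the shares were 18.2% (10.8 to 27.8%) and 17.0%, without weighting to classes. The second share draws on the Cd8a-rich C5-like cells, so the comparison at that depth does not hold class constant. How far depth sets the joint detection was not tested further.

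Classes differed in this respect. In the C3-like class 18 of 84 Cd8b1-positive cells had Cd8a (21.4%, 13.2 to 31.7%), against 9.51% (7.73 to 11.5%) of the Cd8b1-negative ones, and the thinned shares were 9.09% and 5.17%. In the C4-like class 17 of 26 had it (65.4%, 44.3 to 82.8%), against 14.6%, and after thinning 58.3% (27.7 to 84.8%) against 9.81%. C5-like cells gave 9 of 10 (90.0%, 55.5 to 99.7%) against 43.2%, and after thinning 66.7% (22.3 to 95.7%) against 32.9%, with an interval that covers the negative share. None of the 7 Cd8b1-positive C6-like cells had Cd8a. C3-like cells held 66 of the 92 liver cells with Cd8b1 alone and 84 of all 139 Cd8b1-positive ones. Cd8b1 alone also prevailed in the few positive cells of the C7-like class (3 of 4) and of clusters 5 (2 of 2) and 7 (3 of 5), while C4-like and C5-like positive cells mostly had both transcripts.

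A cell counted as lacking Cd8a may hold transcripts that were not captured. Cells with Cd8b1 alone were not limited to single molecules, since 28 of the 66 C3-like ones had at least 2 Cd8b1 UMIs. In contrast, all 9 Cd8b1-only C4-like cells had 1 UMI.

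**Figure D2:**
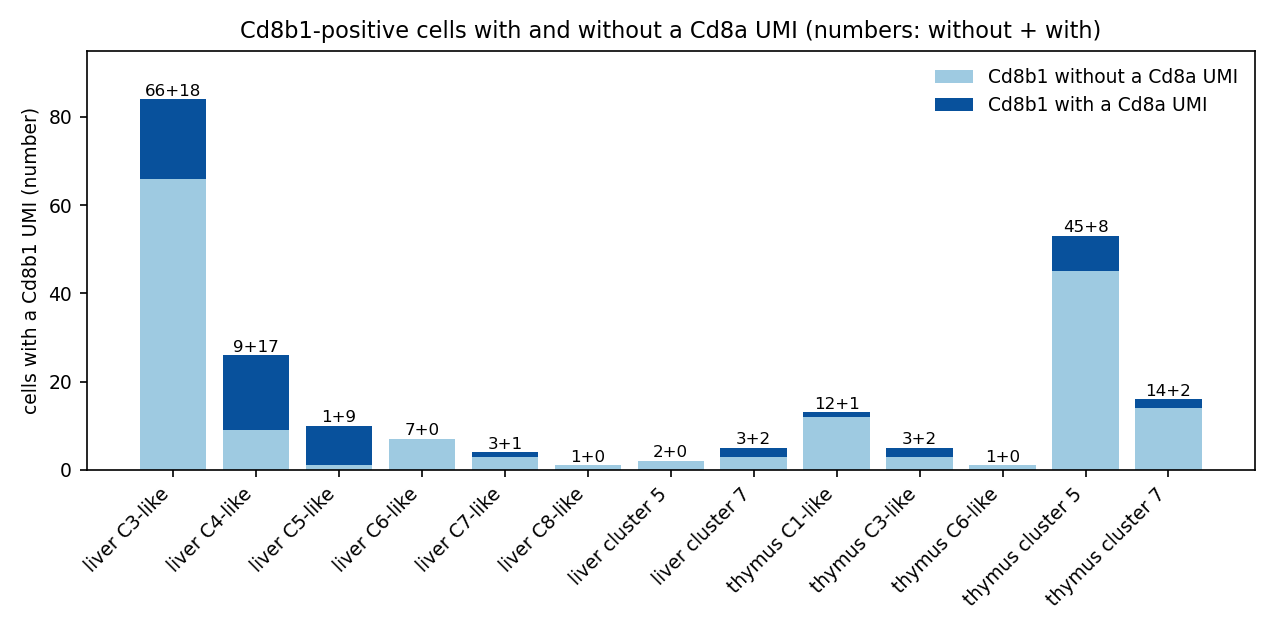
Number of Cd8b1-positive cells with (dark) and without (light) a Cd8a UMI in each class that had any, with both numbers printed above each bar. Liver C3-like cells and thymic cluster 5 hold the tallest bars, 66 and 45 of them without Cd8a, whereas most C4-like and C5-like positive cells had Cd8a.

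In the thymus 13 of 88 Cd8b1-positive cells had Cd8a (14.8%, 8.11 to 23.9%), against 0.751% of the negative cells, and 0.970% when weighted to the same classes. Within cluster 5 the numbers were 8 of 53 (15.1%) against 1.21%. Thinned to 1500 UMIs, the library-wide shares were 9.09% and 0.490%. Cd8a was thus detected more often in Cd8b1-positive than in Cd8b1-negative cells, although 75 of the 88 positive cells showed the β chain transcript alone. Since the beads were directed at CD8, that excess of Cd8b1 alone cannot be told apart from the depletion.

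The balance of the chains was also read from summed molecules, without a cut on single cells. Of the Cd8a and Cd8b1 UMIs together, Cd8b1 made up 52.2% (46.7 to 57.7%) in liver C3-like cells, 4.21% in C4-like, 7.37% in C6-like, 8.21% in C7-like and 0.441% (0.241 to 0.738%) in C5-like cells. In the thymus it made up 66.8% overall and 79.7% (71.3 to 86.5%) in cluster 5, values that cannot be told apart from the CD8 depletion. These are 3′ counts, which do not scale with transcript length, but whether both transcripts were captured equally well was not tested, so the shares compare classes and not the chains.

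**Figure D3:**
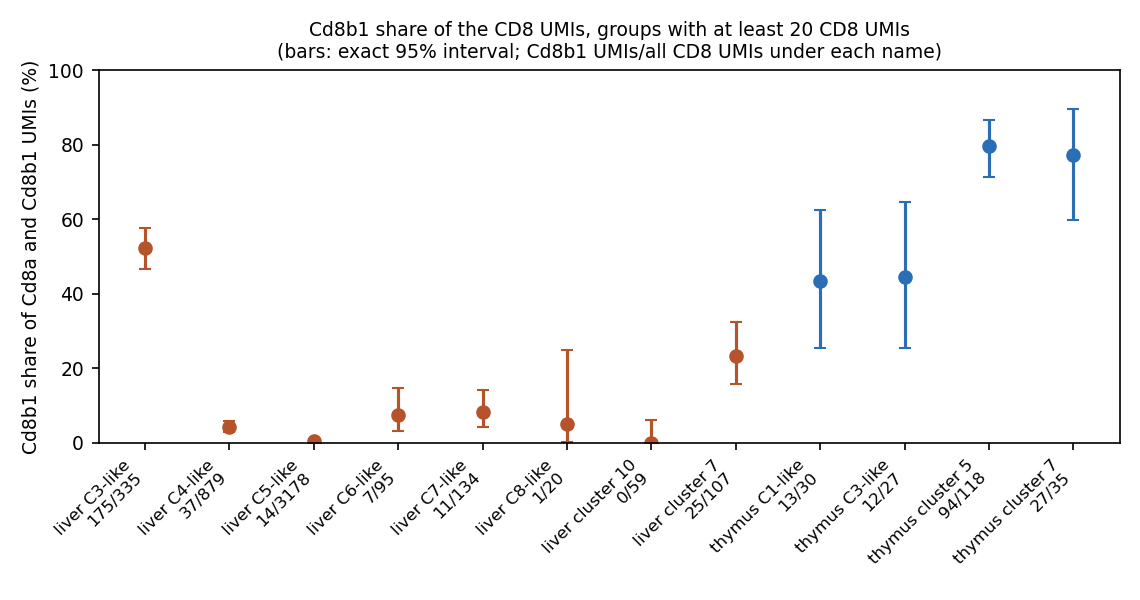
Cd8b1 share of the summed Cd8a and Cd8b1 UMIs (%) for classes with at least 20 such UMIs, liver in brown and thymus in blue; bars are exact 95% intervals and the UMI counts stand under each name. The liver C3-like cells (52.2%) and the thymic clusters 5 (79.7%) and 7 (77.1%) are far above the C5-like cells (0.441%). Thymus shares cannot be told apart from the CD8 depletion of that library.

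Themis was detected more often in cells with Cd8b1 than in cells with Cd8a alone. In the liver it was found in 23.7% (16.9 to 31.7%) of Cd8b1-positive cells, against 4.73% of negative cells and 7.70% after weighting to classes. The share was 25.5% with both CD8 transcripts, 22.8% with Cd8b1 alone, 3.39% with Cd8a alone and 5.14% with neither. In C3-like cells the same 4 patterns gave 38.9%, 24.2%, 12.1% and 9.01%. In the thymus Themis was found in 37.5% (27.4 to 48.5%) of Cd8b1-positive cells, against 14.2%, or 17.4% weighted. At 1500 UMIs the shares were 12.5% (6.41 to 21.3%) against 2.67% in the liver and 23.6% (13.2 to 37.0%) against 6.60% in the thymus. Cd4 and Cd8b1 were together in 0 liver cells and 1 thymus cell. Of the 26 Cd4-positive liver cells 7 had Cd8a (26.9%, 11.6 to 47.8%), beside 24.0% of the Cd4-negative ones, without weighting to classes. Within the C4-like class 6 of 21 had it (28.6%, 11.3 to 52.2%), against 14.9% of the Cd4-negative cells, a share that the interval covers. With so few Cd4-positive cells, no pairing or exclusion of Cd4 with either CD8 gene was detectable.

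What else marked the Cd8b1-positive liver cells was then asked by comparing the summed UMIs of the 139 positive and 7936 negative cells. Positive cells had more transcripts of recirculating, naive-type T cells and fewer of NK receptors. Of 2457 genes with enough counts, 29 (1.18%) were at least 2-fold higher and 79 (3.22%) at least 2-fold lower. The groups differed in depth (medians 3100 and 2738 UMIs) and in ribosomal-protein and mitochondrial UMIs, which were 35.3% of the total in positive and 28.0% in negative cells. With a total that leaves those genes out all ratios shifted upward by 0.15 (log2), and 69 genes were higher and 72 lower among 3515.

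Of the 13 measured naive and recirculating T cell genes 9 were at least 2-fold higher and 0 lower, with a median log2 ratio of 1.46 against -0.09 for all genes tested. Ccr7, the chemokine receptor for entry into lymph nodes, stood at 314 against 24.8 CPM (12.6-fold, 10.6 to 15.1) and was found in 38.8% against 3.68% of cells. S1pr1, needed for exit from lymphoid organs, was 3.37-fold higher, and the transcription factor Tcf7 3.11-fold (204 against 65.4 CPM). Since 6 of the 18 listed genes are also markers of the C3-like class, to which most positive cells belonged, the comparison was also made within that class, as described after the other gene groups.

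NK receptors and their adaptors were lower for 9 of 15 genes and higher for 0 (median log2 ratio -1.28). Klra7, a Ly49 receptor, was at 49.5 against 246 CPM (0.201), Ncr1 at 36.2 against 113 CPM and Tyrobp, the DAP12 adaptor, at 441 against 1168 CPM. With the other total 11 naive genes were higher and 8 NK genes lower, and no gene of either list crossed in the opposite direction.

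The 10 largest ratios upward also included Gzmk (13.9), Hist1h2ap (8.01), Dapl1 (7.87), Igfbp4 (7.50), 2810417H13Rik (5.48), Gm8369 (5.05), Themis (4.35), Fam169b (4.13) and Sox4 (4.09). Gzmk, a granzyme of memory-type cells, rested on 10 of 139 cells, and for the histone gene Hist1h2ap 83 of 158 UMIs came from 1 cell, without which its ratio was 3.91. For 2810417H13Rik, found in 5 of 139 cells, 12 of 28 UMIs came from 1 cell, and its ratio without that cell was 3.19. Hist1h2ap and 2810417H13Rik were among the leading genes of cycling cluster 7. That cluster gave 5 of the 139 positive and 110 of the 7936 negative cells, and its part in these ratios was not tested. Downward the list held Ifitm3 (0.110), H2-Eb1 (0.181), Klra7, Lyz2 (0.220), Socs2 (0.231), Ccrl2 (0.234), Car2 (0.262), Abi3 (0.264), Asb2 (0.265) and H2-Ab1 (0.283). Ifitm3, H2-Eb1, Lyz2 and H2-Ab1 are abundant in myeloid cells, whose listed genes summed to 518 CPM in positive and 983 in negative cells. The part of that difference in the other ratios was not tested. B cell genes summed to 34.2 and 33.8 CPM, with 5 of 6 at 0 in the positive cells.

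The machinery downstream of the coreceptors differed little. Among 19 measured kinases and proximal TCR signalling genes 0 were 2-fold higher and 1 was lower, Tespa1 (0.45), which is needed for thymocyte selection. Lck, the coreceptor kinase, stood at 476 CPM in both groups (ratio 1.00, 0.878 to 1.13), and Lat at 453 against 317 CPM. Of 15 regulators known to act on the Cd4 and Cd8 loci Tcf7 and Lef1 were higher. Runx3, which represses Cd4 and supports Cd8 expression, was at 143 against 158 CPM (0.904, 0.710 to 1.14), and Gata3 at 0.843. Among the coreceptor ligands 3 of 9 were lower, all of them MHC class II genes. By share of cells, H2-Eb1 and H2-Ab1 were not lower, at 2.88% and 5.76% of positive against 2.19% and 3.69% of negative cells. Within the C3-like class 0 of 6 measured ligands were 2-fold lower. In the list of other costimulatory and adhesion receptors the inhibitory receptor gene Lag3 alone of 10 was lower (0.483).

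Type-1 effector genes were lower for 4 of 14 (Tbx21, Il2rb, Ccl3 and Ccl4, at ratios of 0.424 to 0.498) and higher for Gzmk. Both measured genes of immature γδ thymocytes, Sox4 and Id3 (2.63), were higher, but within the C3-like class they were at 1.20 and 1.53. None of 5 IL-17 program genes differed by 2-fold, and of the NKT-like program only Socs2 was measured, lower as given above.

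To hold the class constant, the comparison was repeated within the C3-like liver cells, 84 positive against 957 negative at medians of 2965 and 3018 UMIs. Of 2220 genes 18 (0.811%) were at least 2-fold higher and 39 (1.76%) lower, with homing receptors and Themis among the first and Ly49 receptors among the second. With the total that leaves out mitochondrial and ribosomal-protein genes, 83 were higher and 93 lower of 3531, since more genes then reached the minimum level.

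Ccr7 was higher here too, at 520 against 153 CPM (3.40-fold, 2.82 to 4.08), in 59.5% against 22.8% of cells. Igfbp4 was at 127 against 42.6 CPM (2.98-fold), and Ccr9, a receptor for homing to the gut and thymus, at 113 against 49.9 CPM (2.27-fold). These were the 3 of 15 naive genes past 2-fold. Igfbp4 and Ccr9 were also among the leading genes of the thymic C1-like cluster 4, and Ccr7 among those of cluster 5. Whether they mark naive or immature cells here was not tested. Dapl1, Lef1 and Tcf7 were at 2.00, 1.62 and 1.45, with Dapl1 just short of the limit, and Ly6c2 was at 0.674, the only one of these on the lower side.

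Themis was among the highest ratios in this class, at 90.0 against 30.4 CPM (2.96-fold, 1.86 to 4.58) and in 27.4% against 9.30% of cells, and Cd8a was at 96.6 against 41.9 CPM (2.31-fold, 1.49 to 3.47). The other genes of the top 10 were Tdrp (3.54), Irak1 (2.95), Ifngr2 (2.92), Wdr20 (2.60) and Pias1 (2.57), each at 53.3 to 63.3 CPM in the positive cells.

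Lower genes were led by the Ly49 receptors Klra7 (16.7 against 145 CPM, 0.115) and Klra1 (23.3 against 100.2 CPM, 0.233), the 2 of 11 NK genes past the limit. Spry2, an inhibitor of receptor tyrosine kinase and TCR signalling, was at 53.3 against 212 CPM (0.251, 0.143 to 0.411) and was found in 8.33% against 26.5% of cells. Metrnl (0.293), D16Ertd472e (0.330), Csrp1 (0.365), Anxa2 (0.373), U2af2 (0.378), Sept11 (0.386) and Pglyrp1 (0.386) completed the 10. Type-1 genes were split, with Gzma at 640 against 314 CPM (2.04-fold, but 1.42-fold without 1 cell that held 63 of its 192 UMIs) and Il2rb at 140 against 293 CPM (0.478). Cbfb, the partner of Runx proteins, was the only one of 15 locus regulators past 2-fold (0.481), and Lck was at 0.958 (0.803 to 1.14). Myeloid genes summed to 203 CPM in positive and 196 CPM in negative cells of this class.

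**Figure D4:**
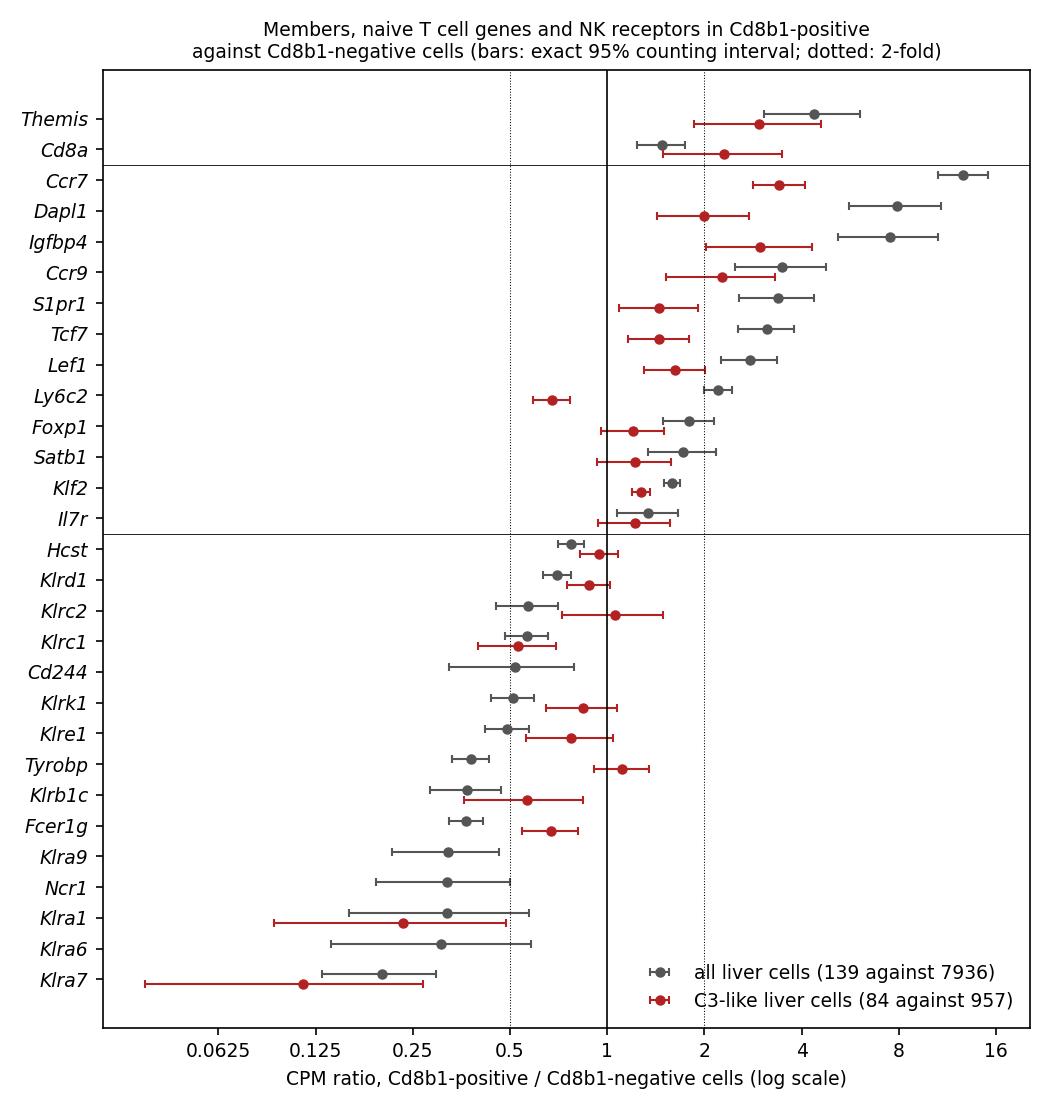
CPM ratio of Cd8b1-positive to Cd8b1-negative cells (log scale) for Themis, Cd8a, 12 naive T cell genes and the NK receptors that passed the count limits, over all liver cells (grey, 139 against 7936) and within C3-like cells (red, 84 against 957); bars are exact 95% counting intervals and dotted lines mark 2-fold. Ccr7, Igfbp4, Ccr9 and Themis stay above 2-fold within the class and Klra1 and Klra7 below, while Ly6c2 is above 1 over all cells (2.20) and below 1 within the class (0.674).

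A further 6 comparisons were added after earlier values had been seen and serve as description. Within the C3-like class the 18 Cd8b1-positive cells with Cd8a were set beside the 66 without it. Of 565 genes 4 (0.708%) were higher and 10 (1.77%) lower. Cd160, an inhibitory and NK-associated receptor, was at 531 against 170 CPM (3.12-fold, 1.96 to 4.98) and Gzma at 1050 against 498 CPM (2.11-fold, but 1.56-fold without 1 cell with 27 of its 81 UMIs), while Samhd1 (0.307) and Dusp10 (0.316) were lowest. The 18 cells were deeper (medians 3518.5 and 2777 UMIs), and 0 of 10 naive genes differed by 2-fold.

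Outside the C3-like class the Cd8b1-positive liver cells were drawn from the other classes in different proportions than the negative ones. Cycling cluster 7 gave 5 of the 55 positive and 110 of the 6979 negative cells. The NK-receptor-rich C5-like class gave 10 and 2862, and the C7-like class 4 and 273. The part of this in the ratios was not tested. The 55 cells differed from the negative ones in 61 genes upward (2.3%) and 76 downward (2.86%) of 2653. Gzmk led at 169 against 5.85 CPM, in 9 of 55 cells, and Klrg1, a receptor of differentiated effector cells, was at 84.3 against 13.4 CPM (6.29-fold). Both genes were among the leading genes of the C7-like class. Cell cycle genes followed, among them Stmn1 (7.10) and Top2a (5.88), each in 7 of 55 cells, at 4.56 and 3.62 without the cell with most of their UMIs. Cd8a was 2.45-fold higher (510 against 208 CPM) and Themis 3.54-fold (53.2 against 15.0 CPM). Ifitm3 had 0 UMIs in the positive cells, at least 5.90-fold lower when 3 counts are allowed for the group, and 6 of 15 NK genes were lower but only 1 of 6 naive genes higher.

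In thymic cluster 5 the 53 Cd8b1-positive cells were compared with 993 negative ones (medians 2793 and 2971 UMIs), with 94 genes higher (3.16%) and 134 lower (4.5%) of 2979. Ly6c1 was at 169 against 25.9 CPM (6.51-fold). Tdrp, also higher in the Cd8b1-positive cells of the liver C3-like class, was at 84.3 against 21.2 CPM (3.98-fold, 2.02 to 7.26). Cd8a was at 71.3 against 4.05 CPM and Themis at 136 against 71.1 CPM (1.92-fold, 1.16 to 3.00). The lower side held Ccl5 (0.0598), Pdcd1 (0.0707, 0.0018 to 0.397) and Cd160 (0.0819, 0.0021 to 0.460), the last 2 each with 1 UMI in the positive cells. Spry2 was again lower, at 19.5 against 186 CPM (0.105, 0.0215 to 0.307), in 5.66% against 27.1% of cells.

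Hemoglobin transcripts, which were among the leading genes of cluster 5, were lower in the positive cells, with erythroid genes at 19.5 against 306 CPM in sum and 0 UMIs of Hbb-bs and Hba-a2. Genes of double-positive thymocytes were higher for 2 of 4 measured, Arpp21 (2.17) and Dntt (2.14, or 1.78 without the cell with most of its UMIs), at 460 against 291 CPM for the whole list, with Rag1 at 0 UMIs in both groups. Of the locus regulators Satb1 was at 1.64, Tcf12 at 1.67 and Tox at 0.542.

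Splitting a class by Cd8a or by Themis gave few genes past 2-fold. Cells without a UMI may hold uncaptured transcripts, and 378 of the 408 Themis-positive liver cells had 1 UMI. The positive cells held 3601355 UMIs for Cd8a and 660123 for Themis, against 300073 for Cd8b1 in C3-like liver cells. Counts of genes are therefore not comparable between these splits. Among C5-like cells the 1245 Cd8a-positive and 1627 negative cells differed in 0 genes upward (0%) and 2 downward (0.083%) of 2410. These were the costimulatory receptor gene Cd28, at 38.9 against 119 CPM (0.326, 0.269 to 0.394), and Klra1, at 63.9 against 137 CPM (0.466). Among C4-like cells the 214 Themis-positive ones had 2 genes higher (0.0807%), Hbegf (2.41) and Cd163l1 (2.35), and 0 lower (0%) of 2479. One cell each held 25 of 59 and 10 of 48 of their UMIs, and without it the ratios were 1.40 and 1.87, so neither was past 2-fold. With the total that leaves out mitochondrial and ribosomal-protein genes 3 genes were higher and 4 lower.

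The 21 Cd4-positive C4-like cells held only 69463 UMIs, and 279 genes were past 2-fold upward (9.86%) and 260 downward (9.18%) of 2831, so its single genes are given as values only. By list, 6 of 13 type-1 genes and 6 of 9 NK genes were lower, beside 9.18% of all genes tested. Gzmb stood at 432 against 1355 CPM and Klre1 at 72.0 against 463 CPM. Of the NKT-like program 2 of 4 genes were past 2-fold, Zbtb16, which encodes PLZF (72.0 against 27.5 CPM, with a ratio interval of 0.840 to 6.19 that includes 1), and Il4 (115 against 47.4 CPM, from 8 UMIs). Without the cell with most of its UMIs Il4 was at 1.91 (0.695 to 4.19) and no longer past 2-fold.

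Across 15 groups of cluster and library the 4 genes had different companions among 4406 genes, by Pearson's r of log2(CPM + 10). The groups share 2 libraries, so these values are descriptive. Cd8a was closest to Ncr1 and Cd200r4 (both 0.94), Ppm1j, Padi2 and Gzmb (all 0.93). Cd8b1 was closest to Klhdc2 and Sidt1 (both 0.77), Gm8369 (0.75), Cldnd1 and Dapl1 (both 0.71). For Themis the order was Tmem108 (0.89), Srpk2 and Ift80 (both 0.87), Atp6v1d (0.86) and Lef1 (0.85). Cd4, with a highest level of only 12.1 CPM, had Plod3 and Khk (both 0.92) and Camk1 (0.91) among its closest genes. Between members r was 0.03 for Cd8a and Cd8b1, 0.31 for Cd8b1 and Themis, -0.58 for Cd8a and Themis and -0.08 for Cd4 and Cd8a.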

How the data were processed

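Libraries were made with 10x Genomics 3′ v2 chemistry. The authors deposited raw UMI counts per gene and barcode, without normalization, and the labels name Cell Ranger (version not given), Seurat 3.0 and the build mm10. Cells with 800 to 4000 genes and at most 6% mitochondrial UMIs were kept, more cells than the study analysed. Scrublet (scanpy 1.11.5) called 1 liver and 2 thymus cells and did not work, so doublets were kept. Joint clustering of both libraries in Seurat 5.3.0 (R 4.3.3) followed log-normalization of each cell and used 30 components of 2000 variable genes at a Louvain resolution of 0.6. The 4 genes and the lists of coreceptor signalling, locus regulators and costimulatory receptors were taken out first.

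A cluster took a class name where its markers averaged a log2 ratio of at least 0.5, 0.2 above the next class, from at least 3 markers. The rule leaving clusters unnamed when 2 of their 10 leading genes came from B cell, erythroid, cell cycle or interferon lists was written after clusters had been seen. Summed UMIs were given as CPM (counts per 1000000 UMIs) with exact Poisson intervals, shares with exact Clopper-Pearson intervals and ratios with exact conditional binomial intervals (Python 3.11.15, numpy 2.4.6, scipy 1.17.1, 95%). Ratios used genes with 50 UMIs over both groups and 50 CPM in the higher one, without mitochondrial, ribosomal-protein and the selecting genes; a ratio of at least 2 or at most 0.5 counted. List medians use log2 ratios after adding 10 CPM. The scripts were tested on simulated data. The genes, lists and tests were chosen with earlier results of these data known. Named genes are the members, list examples, the 10 largest ratios per direction in the 2 main comparisons and the 5 closest genes per member; genes of the added comparisons were picked from their 10 largest ratios and the lists after values were seen. Some genes that these rules name are not reported here. Columns of samples not used numbered 0. Drawing used matplotlib 3.10.9.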

Additional observations from a re-analysis of the deposited data

How the results depend on the processing

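No paired analysis was possible because each tissue has 1 library. With each cell thinned to 1500 UMIs the share with Cd8b1 was 1.09% in the liver, 1.27% in the thymus and 5.28% in C3-like liver cells. At that depth Cd8a was found in 18.2% of Cd8b1-positive and 17.0% of Cd8b1-negative liver cells, without weighting to classes. With at least 2 Cd8b1 UMIs the shares were 0.706%, 0.689% and 3.84%, 70.2% of positive liver cells were C3-like, and 60 genes were higher and 176 lower. With a total that leaves out mitochondrial and ribosomal-protein genes 69 genes were higher, and with a minimum of 10 CPM 199 were higher and 501 lower, since more genes were then compared. The other 52 values of these results moved by less than their counting interval or 1.5 times, under cell filters, doublet removal, clustering settings and, chosen after seeing the data, leaving out for each gene the Cd8b1-positive cell with most of its UMIs (26 higher, 114 lower). Of 432 values of 36 levels by class 34 moved. Cd8a in thymic C3-like cells fell from 25.5 to 10.2 CPM when the 4 genes and lists were allowed to drive the clustering, and in liver C6-like cells from 35.1 to 14.8 CPM without the highest Scrublet scores; the cause was not tested. Cd8b1 rests on 272 liver and 147 thymus UMIs, which limits every comparison within a class.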
